A study of Mus musculus with 9 samples.

Results

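The cytosolic ribosomal protein genes are the genes for the proteins of the ribosome that works in the cytoplasm. They were taken by name from the deposited gene tables: protein-coding genes whose symbol starts with Rpl or Rps and a digit, together with Rpsa, Rplp0, Rplp1 and Rplp2, without the Rps6k kinases, Rps19bp1 and the named pseudogenes. The rule gave 86 of 49548 genes, 33 of the small subunit and 53 of the large subunit, and it used no measured value. The libraries are 3′ mRNA sequencing of cultured synovial fibroblasts (SFs), the connective tissue cells of the joint lining, from ankle joints of mouse. There were 3 libraries of WT SFs, 3 of untreated hTNFtg SFs and 3 of hTNFtg SFs given infliximab, an antibody against human TNF, at 1 µg/mL for 48 hours. The methods give 8-week-old CBA C57BL/6J mice, WT or hTNFtg, and a removal of CD45+ cells at passage 1. The hTNFtg mouse carries a human TNF transgene. The labels give no treatment for WT and untreated hTNFtg SFs, where the methods describe vehicle over the same time. The methods call the replicates biological, and neither they nor the labels say which mice a library came from.

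Each ribosome holds a single copy of most of these proteins. Their mRNAs start with a cytosine followed by a run of pyrimidines, the 5′ terminal oligopyrimidine (TOP) motif, through which growth signalling by mTOR and the RNA-binding protein LARP1 sets how fast they are translated. Because translation of these mRNAs can change while their level does not, a level of mRNA says little on the amount of protein made. Many ribosomal protein mRNAs have also been copied into the genome as processed pseudogenes, whose sequence is near that of the parent mRNA.

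The depth and the purity of the libraries bear on all values below. The deposited values are normalized read counts, and dividing them by what a single read is worth in a library gave about 3829087 to 9015123 reads in 8 libraries and 613343 in hTNFtg replicate 1. In that library 3 reads amount to 18.7 normalized counts, and in the others to 1.60 to 3.31. The 8 fibroblast markers (Col1a1, Pdgfra, Thy1 and others) summed to 31077 to 43049 normalized counts in all libraries. The 7 leukocyte and macrophage markers summed to 174 to 631 in WT, 3019 to 6252 in hTNFtg and 1969 to 3988 in infliximab-treated SFs. The 3 chondrocyte markers summed to 1236 to 2038, 216 to 361 and 330 to 709 in the same order. The 4 hepatocyte markers reached 565 in infliximab replicate 3 and at most 18 elsewhere. The leukocyte and chondrocyte sums moved with the groups, the fibroblast sums overlapped between them, and the hepatocyte sum stood out in a single library. Lyz2 was the highest leukocyte and macrophage marker in each untreated hTNFtg library (2284 to 5356, against 43 to 277 in WT). Ptprc stood at 9 to 31 there against 0 to 3, and Adgre1 at 20 to 62 against 3 to 18. All 7 of these markers were higher in every untreated hTNFtg library than in every WT library. Sox9 made most of the chondrocyte sum (1160 to 1939 in WT, 174 to 272 in hTNFtg), while Col2a1 overlapped between groups. Among fibroblast markers, Pdpn (852 to 982 in WT, 1987 to 5582 in hTNFtg), Thy1 and Prg4 were higher in all untreated hTNFtg libraries than in WT. Pdgfrb and Col1a1 were lower in all of them, and Col1a2, Col3a1 and Pdgfra overlapped. The part of these markers in the values of the ribosomal protein genes was not tested. In such bulk libraries, fewer cells of a type and less RNA per cell cannot be told apart.

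The start of a ribosomal protein gene is where its TOP motif is encoded, so the sequence around it is shown for some members described below, among them the paralogs and their partners. They were picked by hand, and carry a run of pyrimidines more often than the members at large. RefSeq promoter windows (GRCm38.p6, 250 bases before to 50 after each annotated start) were at hand for 65 members, in 77 windows. Each line gives 30 bases, 15 before the annotated start and 15 from it on, read 5′ to 3′ on the strand of the gene, and the capitals mark the longest run of C or T within 20 bases of the start, where it has at least 8 bases and as far as it lies in the bases shown.
Rplp2 (chr7:141447636-141447665, + strand, acidic protein of the stalk): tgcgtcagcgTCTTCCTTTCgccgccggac
Rpl27a (chr7:109519180-109519209, + strand, large subunit): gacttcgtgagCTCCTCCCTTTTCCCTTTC
Rps9 (chr7:3704026-3704055, + strand, small subunit): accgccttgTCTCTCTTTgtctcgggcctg
Rps6 (chr4:86857353-86857382, - strand, the small subunit protein phosphorylated by S6 kinases): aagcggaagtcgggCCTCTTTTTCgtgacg
Rpl35 (chr2:39005117-39005146, - strand, large subunit): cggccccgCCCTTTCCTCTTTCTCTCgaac
Rps27 (chr3:90213634-90213663, - strand, small subunit): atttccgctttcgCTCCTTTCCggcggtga
Rps27rt (chr9:114982725-114982754, - strand, a copy of Rps27): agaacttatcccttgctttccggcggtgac
Rps27l (chr9:66946071-66946100, + strand, a paralog of Rps27): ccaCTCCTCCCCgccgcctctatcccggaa
Rps27l, second window (chr9:66946398-66946427, + strand): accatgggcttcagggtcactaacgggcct
Rpl22 (chr4:152325711-152325740, + strand, large subunit): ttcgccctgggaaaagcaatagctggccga
Rpl22, second window (chr4:152324421-152324450, + strand): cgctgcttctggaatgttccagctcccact
Rpl7l1 (chr17:46782642-46782671, - strand, a paralog of Rpl7): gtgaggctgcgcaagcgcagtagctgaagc
Rpl22l1 (chr3:28805493-28805522, + strand, a paralog of Rpl22): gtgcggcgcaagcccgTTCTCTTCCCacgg

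A run of this kind was present in 31 of the 77 windows (40.3%), against 16.0% of all 32851 windows and 17.3% of the 75 windows of mitochondrial ribosomal protein genes. The longest run reached a median of 7 bases in the windows of the members and 5 bases in all windows. The annotated starts can be off by some bases, so a missing run says only that the letters are not in this stretch. Among short motifs searched on both strands over the whole window, CCGGAAG, the core of ETS factor sites, was in 35.1% of member windows and in 8.86% of all windows. AAGATGG, the core of the YY1 motif, was in 15.6% against 6.34%. GGGCGG, the core of SP1 sites, was in 59.7% against 35.7%, and TATAAA in 9.09% against 13.6%. CCGGAAG and AAGATGG can share bases where they meet. The windows of mitochondrial ribosomal protein genes held CCGGAAG in 34.7% and AAGATGG in 17.3%, so these letters did not set the cytosolic genes apart from them.

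The members were among the most abundant mRNAs of SFs. Of the 86 genes, 83 had a mean of at least 10 normalized counts over the 9 libraries, 9 were among the 100 highest genes of the table and 45 among the 500 highest. The median member stood at 1477 normalized counts. Rplp1, an acidic protein of the stalk that recruits elongation factors to the ribosome, was the highest at 19056, and ranked 7 of all genes. Rpl27a followed at 11200, then Rpsa, which is also known as the laminin receptor, at 8719. Rps20 stood at 7098, 10371 and 11941 in WT, 4322, 7441 and 13628 in hTNFtg and 8093, 7318 and 6832 with infliximab, and Rpl13 at 4291, 5648 and 8175, then 3525, 5284 and 7774, then 5223, 4269 and 2881. In both the groups overlapped in every comparison. The 5 highest members held 27.4% of all counts on the members and the 10 highest 40.7%. Reads of this assay come from the 3′ end and do not grow with gene length, yet genes can still differ in how well their ends are captured and mapped, so this order is one of counts and not of molecules. The mean counts of members with a mean of at least 10 ran from 135 for Rpl6l to 19056.

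The exceptions at the low end were paralogs known from other tissues. Rpl3l, of heart and skeletal muscle, was listed at 0 in 8 libraries and at 1 in hTNFtg replicate 2. Rpl10l, of testis, was listed at 0 in 8 libraries and at 1 in infliximab replicate 1. Rpl39l, also of testis, gave 3, 7 and 9 normalized counts in WT, 0, 9 and 10 in hTNFtg and 2, 2 and 4 with infliximab. Rpl3l and Rpl10l were at the level of about 1 read, so no fold is given for them. Rpl39l was low in all libraries, and its groups overlapped in every comparison.

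Of all counts in a library, the 86 genes took 4.84%, 5.62% and 5.92% in WT replicates 1, 2 and 3. Untreated hTNFtg libraries gave 3.97%, 5.01% and 4.95%, and treated ones 4.11%, 4.57% and 3.63%. The means were 5.46% ± 0.556 (SD, n = 3), 4.64% ± 0.581 and 4.10% ± 0.470. All 3 infliximab-treated libraries lay below all 3 WT libraries, while hTNFtg libraries overlapped with both. A share over the members carries no test here. Without Rplp1 the share was 4.47% to 5.25% in WT, 3.84% to 4.61% in hTNFtg and 3.34% to 4.27% with infliximab, so that the order was kept without the highest gene. Of the fibroblasts' other ribosome, the 78 mitochondrial ribosomal protein genes held 0.314% to 0.360% of the counts in WT, 0.310% to 0.351% in hTNFtg and 0.320% to 0.350% with infliximab, with all groups overlapping. The ratio of cytosolic to mitochondrial ribosomal protein counts was 15.4, 16.4 and 16.4 in WT, 12.8, 14.3 and 14.4 in hTNFtg, and 12.4, 13.1 and 11.3 with infliximab. WT libraries were above all 6 hTNFtg libraries in this ratio, whether treated or not.

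**Figure D1:**
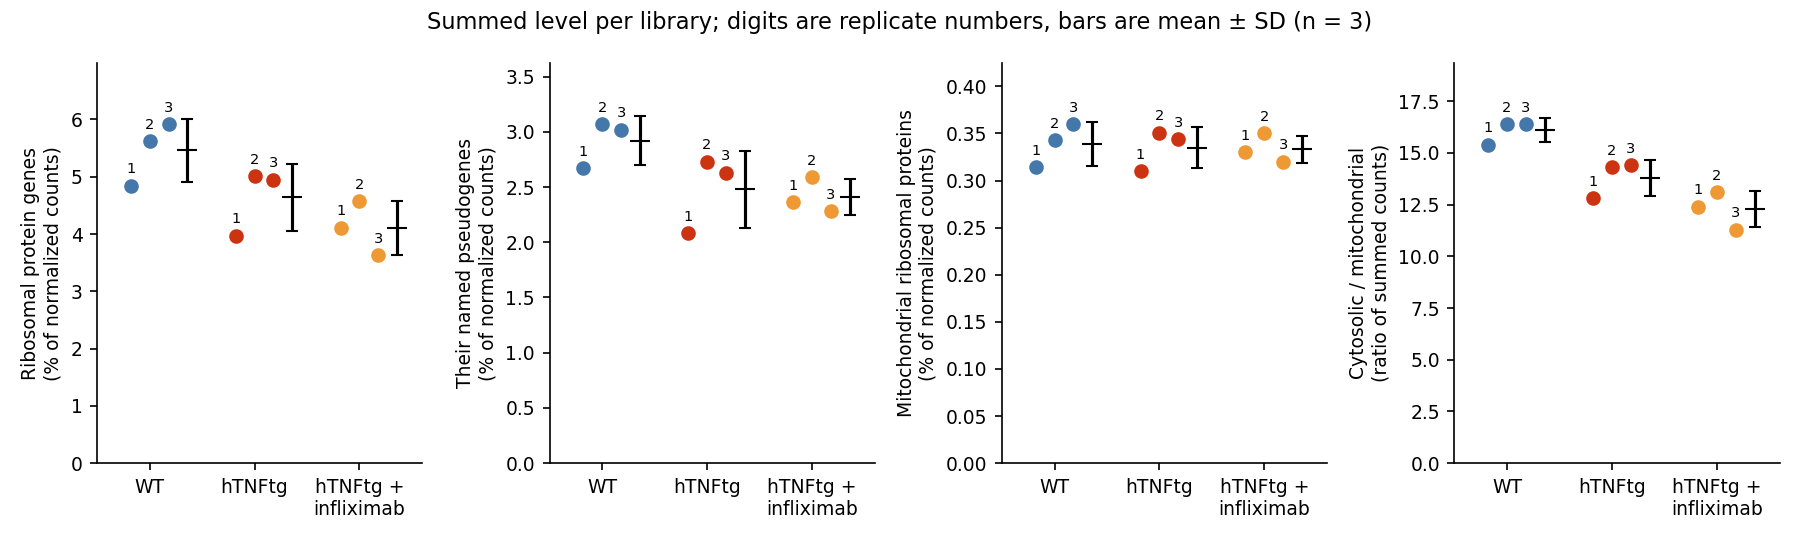
Share of normalized counts on the 86 cytosolic ribosomal protein genes, on their named pseudogenes and on mitochondrial ribosomal protein genes (percent), and the ratio of cytosolic to mitochondrial counts, with a point for each library, its replicate number above it, and a bar for mean ± SD (n = 3). The infliximab-treated libraries sit at 3.63% to 4.57% for the cytosolic genes, below the WT libraries at 4.84% to 5.92%, while the mitochondrial genes overlap between all groups.

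Both subunits showed the same order of groups. Small subunit genes took 2.43% to 2.74% of the counts in WT, 1.93% to 2.42% in hTNFtg and 1.75% to 2.30% with infliximab, and large subunit genes 2.41% to 3.18%, 2.04% to 2.73% and 1.88% to 2.27%. In both subunits the infliximab-treated libraries lay below the WT libraries. Among the 83 members with a mean of at least 10, the group means ran WT, hTNFtg, infliximab from high to low in 47 genes. WT was highest and untreated hTNFtg lowest in 17, and hTNFtg was highest and infliximab lowest in 16.

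The libraries differed within groups. On the log2 scale the SD of a member between replicates had a median of 0.24 among WT libraries, 0.43 among untreated hTNFtg libraries and 0.18 among treated ones. The pooled value of 0.37 was close to the 0.38 of 5954 other genes with a mean of at least 100. Of the 83 genes, 28 had their lowest value in hTNFtg replicate 1, 25 in infliximab replicate 3 and 20 in hTNFtg replicate 3, and 25 had their highest value in WT replicate 3. The least variable member was Rps16, whose highest library was 1.34 times its lowest, and the most variable Rplp1 with 7.66 times.

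**Figure D2:**
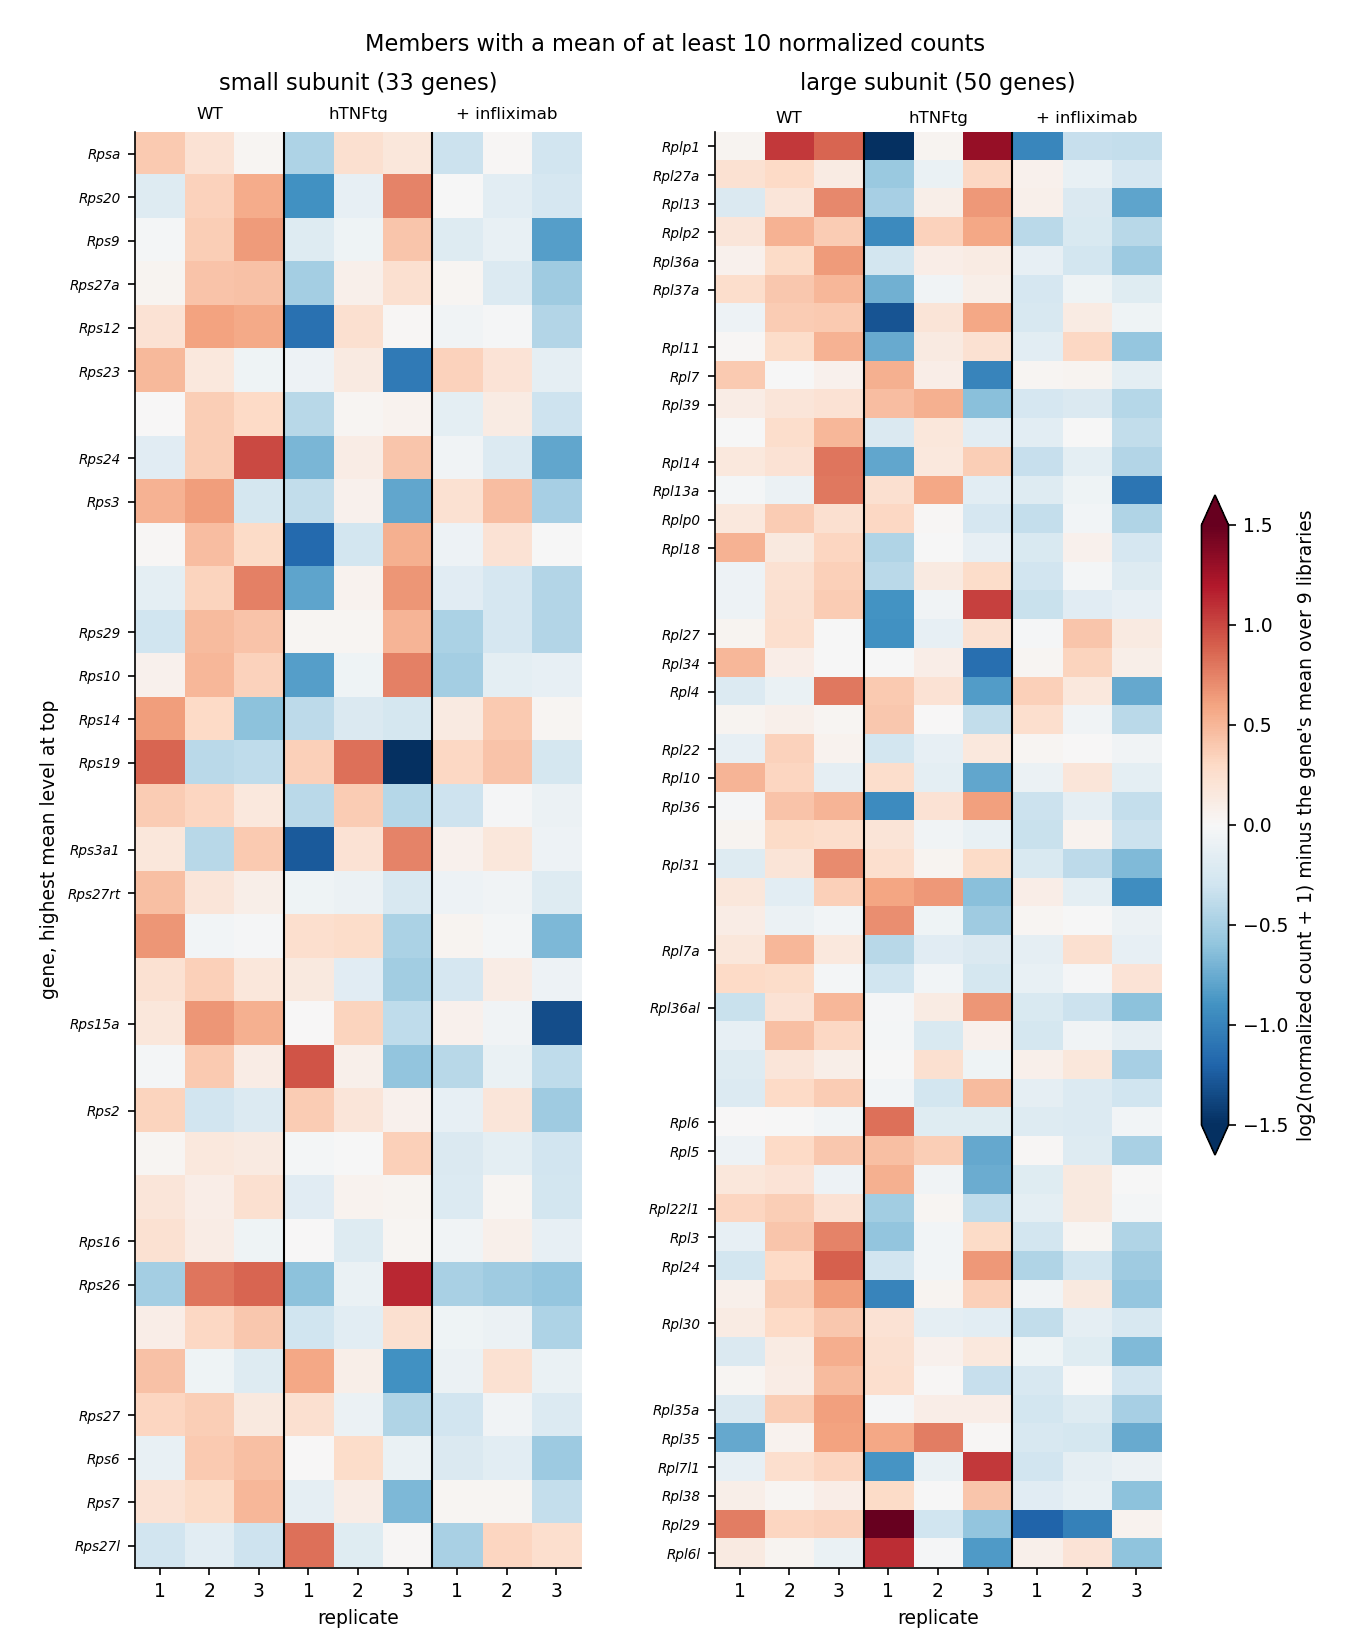
Heat map of log2(normalized count + 1) minus the mean of the gene over 9 libraries, for the 33 small subunit and 50 large subunit genes with a mean of at least 10, with genes in rows from highest to lowest mean and libraries in columns, and with the names of genes described in the text. Most genes are above their mean in WT replicates 2 and 3 and below it in infliximab replicate 3, with medians of 0.29, 0.34 and -0.33.

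The comparison of hTNFtg with WT SFs asks how SFs of an arthritic joint differ from those of a healthy one. The ribosomal protein genes leaned lower in hTNFtg SFs, and none of them passed the test. Of 85 members tested, 72 had a lower and 13 a higher mean log2 value in hTNFtg, with a median log2 fold change of -0.25, where the median over all genes tested was -0.00 and over genes with a mean of at least 100 was -0.09. At an unadjusted P under 0.05 in limma, 0 members were lowered and 0 raised, against 3.69% of all genes lowered and 4.02% raised, and 5.47% and 6.03% of genes with a mean of at least 100. With the further demand of the study that the log2 change be beyond 1 in size, 0 members passed, against 3.04% of all genes as lowered and 3.35% as raised. At an adjusted p under 0.05 the count was 0 as well, and edgeR on approximate reads gave 0 at both thresholds. The smallest P was 0.0647. In 9 members all hTNFtg libraries lay below all WT libraries, which is 10.6% of those tested, where 5.80% of all genes and 9.31% of those with a mean of at least 100 did so. The reverse order held in 0 members, against 5.63% of all genes and 8.94% of those with a mean of at least 100.

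That smallest P belonged to Rpl22l1, the paralog of Rpl22 that can take its place in the large subunit. Rpl22l1 stood at 873, 900 and 811 normalized counts in WT. It stood at 486, 709 and 536 in untreated hTNFtg SFs and at 630, 770 and 681 in treated ones. The 3 hTNFtg libraries were all below the lowest WT library, and so were the 3 treated ones. Its log2 fold change in hTNFtg over WT was -0.59 ± 0.29 (SE, n = 3, limma, adjusted p = 0.691). Rpl22 itself gave 1344, 1858 and 1524 in WT and 1208, 1342 and 1630 in hTNFtg, which overlap, with a log2 fold change of -0.18. Rpl22l1 amounted to 65.0%, 48.4% and 53.2% of the Rpl22 count in WT, 40.2%, 52.8% and 32.9% in hTNFtg, and 42.2%, 52.2% and 48.2% with infliximab. These ratios overlapped between WT and hTNFtg.

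Rps27l, a paralog of Rps27 that is known as a target of p53, lay on the other side. Rps27l stood at 167, 182 and 164 in WT, 361, 179 and 206 untreated and 145, 255 and 242 treated. Its log2 fold change was 0.47 ± 0.32 in hTNFtg over WT (limma, adjusted p = 0.726), and 0.28 in infliximab-treated SFs over WT. The groups overlapped in both. Rps27 itself stood at 915, 941 and 810 in WT, 859, 688 and 534 in hTNFtg, and 597, 702 and 633 with infliximab. As a share of Rps27, Rps27l made 18.3%, 19.3% and 20.2% in WT, 42.0%, 26.0% and 38.6% in hTNFtg, and 24.3%, 36.3% and 38.2% with infliximab. All 6 hTNFtg libraries were thus above the 3 WT libraries in this ratio, a description chosen after the values were seen. Rps27rt, a copy of Rps27 on chromosome 9 whose reads may be split with it, gave 216% to 269% of the Rps27 count in WT, 199% to 284% in hTNFtg and 246% to 285% with infliximab.

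Rpl7l1, a paralog of Rpl7, spread most in the untreated cells, with 131, 227 and 508 in hTNFtg against 223, 291 and 304 in WT and 199, 221 and 228 with infliximab. Rpl6l, a copy of Rpl6, gave 139, 130 and 118 in WT, 274, 125 and 70 in hTNFtg and 133, 146 and 83 with infliximab. For both of these paralogs the groups overlapped in all comparisons.

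The widest fold changes between hTNFtg and WT came with wide errors. Rplp1 stood at 16228, 32896 and 29022 in WT, and at 5107, 16285 and 39103 in hTNFtg. The hTNFtg libraries held both the lowest and the highest Rplp1 value of the series, and the log2 fold change was -0.75 ± 0.82 (limma, adjusted p = 0.726). Rps12 gave 6101, 7981 and 7806 in WT and 2417, 6207 and 5327 in hTNFtg, which overlap, with a log2 fold change of -0.75 ± 0.49. Rps3, a protein at the mRNA entry of the small subunit that also acts in DNA repair, gave 5979, 6411 and 3472 in WT and 3226, 4334 and 2428 in hTNFtg, with -0.66 ± 0.44. Rpl37a, at 4232, 4664 and 4945 in WT and 2136, 3392 and 3745 in hTNFtg, did not overlap and had -0.62 ± 0.40. On the high side stood Rpl35, with 0.49 ± 0.38, and Rps2, with 0.26, besides Rps27l. Rpl38 and Rpl6 had 0.16 each. None of these had an unadjusted P under 0.05. Without hTNFtg replicate 1, the shallow library, 3 members were lowered at that threshold, where 4.05% of all genes were. The log2 fold change of Rplp1 was 0.02 in this fit.

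**Figure D3:**
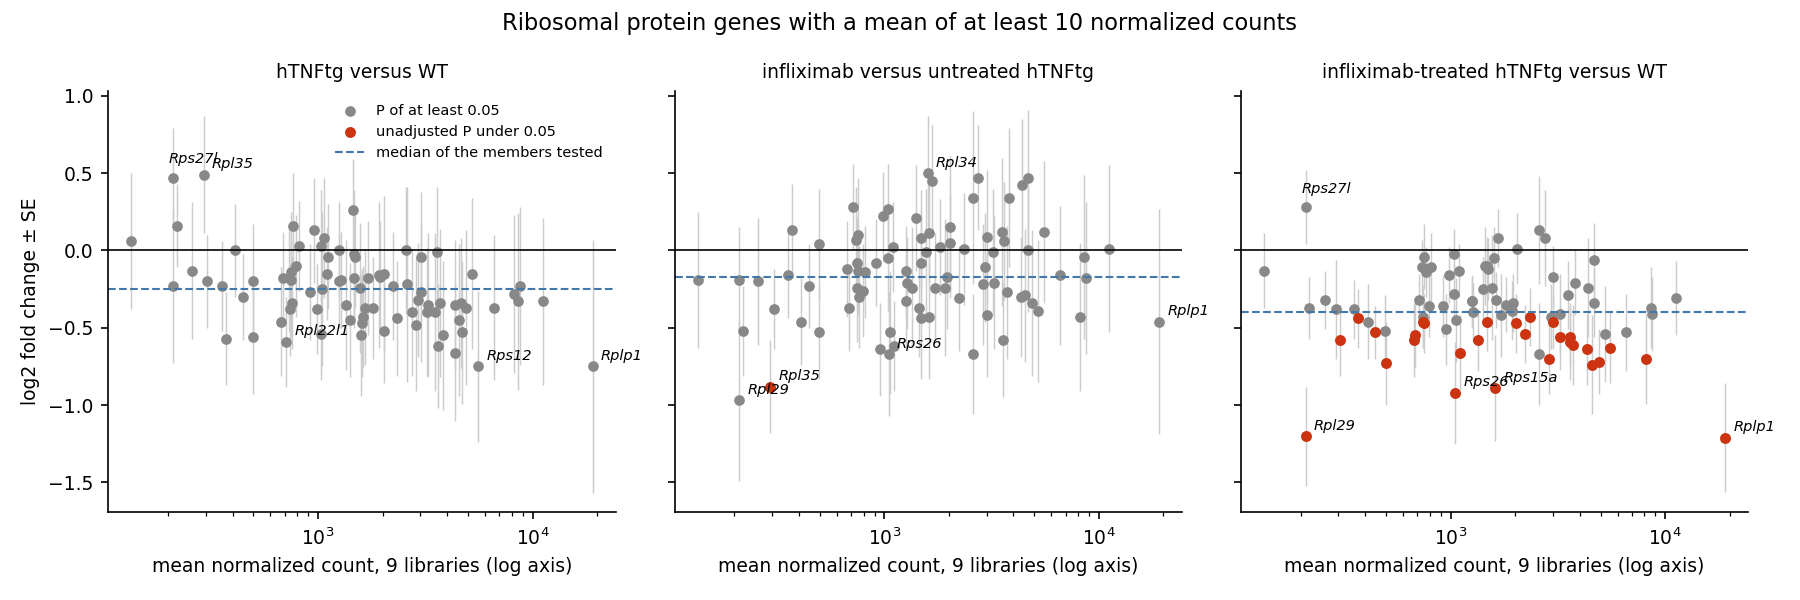
Log2 fold change ± SE (n = 3 per group) of each member with a mean of at least 10 against its mean normalized count (log axis), in the 3 comparisons, with genes at an unadjusted P under 0.05 in red and the median of the members tested as a broken line. The medians lie at -0.25, -0.17 and -0.40, and red points number 0, 1 and 29 from left to right.

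The comparison of infliximab-treated with untreated hTNFtg SFs asks what the antibody does to cells that carry the human TNF transgene. It shares its untreated libraries with the comparison above, so a high or low hTNFtg library enters both with opposite sign. Rpl35 was the only member past an unadjusted P of 0.05, as lower with infliximab. Of 86 members tested, 58 were lower and 28 higher in the treated group. The median log2 fold change was -0.17, against -0.00 over all genes tested. The count of 1 lowered member is 1.16% of them, where 1.44% of all genes were lowered, and 0 members were raised against 2.16%. Among genes with a mean of at least 100 these shares were 2.12% and 4.52%. The study's added demand on the size left 0 members, against 0.936% of all genes as lowered and 1.49% as raised. At an adjusted p under 0.05, limma and edgeR gave 0 members each. At the unadjusted threshold edgeR gave 4 lowered members, where it called 3.36% of all genes lowered. All treated libraries lay below all untreated ones in 9 members (10.5%, against 3.44% of all genes and 6.24% of those with a mean of at least 100) and above them in 2, Rps14 and Rpl7a (2.33%, against 3.99% and 8.43%).

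Rpl35, a protein near the exit of the peptide tunnel, stood at 160, 285 and 418 normalized counts in WT, 411, 467 and 278 in untreated hTNFtg and 231, 229 and 162 with infliximab. Each treated library was below each untreated one, while WT libraries overlapped with both. The log2 fold change with infliximab was -0.88 ± 0.30 (limma, adjusted p = 0.803), a fold of 0.545. The gene overlaps Arpc5l and Wdr38 on the other strand, and since strand use in counting is not stated, reads of these genes cannot be told apart where they overlap. Without infliximab replicate 3, or without hTNFtg replicate 2, Rpl35 was past the threshold no longer and 0 members were lowered. Of all genes, 0.794% and 2.02% were lowered in these fits.

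Rpl29 had a lower log2 fold change with infliximab, -0.97 ± 0.52, without passing the test (limma, adjusted p = 0.803). Rpl29, also known as a heparin-binding protein, stood at 301, 222 and 224 in WT, 548, 143 and 117 in untreated hTNFtg, and 76, 87 and 183 with infliximab. The untreated group was split by replicate 1, which stood far above its other libraries. With each library left out in turn, the log2 fold change of Rpl29 ran from -1.39 to -0.28, the latter without hTNFtg replicate 1. Rpl13a, which is part of a complex that silences inflammatory mRNAs when it leaves the ribosome, gave 2884, 3652 and 2185 in untreated and 2130, 2336 and 1144 in treated SFs, with -0.67 ± 0.39 and groups that overlap. Rpl13a overlaps Flt3l on the same strand. Rps26 gave 604, 868 and 2037 untreated and 665, 643 and 621 treated, with -0.67 ± 0.40. The treated libraries were close to each other and within the untreated range. Rpl36al, a paralog of Rpl36a, gave 909, 998 and 1456 untreated and 785, 735 and 601 treated, groups that do not overlap, with -0.64 ± 0.30 (limma, adjusted p = 0.803).

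On the high side with infliximab, Rpl34 had a log2 fold change of 0.50, Rps14 and Rps23 of 0.47 each, Rpl27 of 0.45 and Rps3 of 0.42, none with an unadjusted P under 0.05. Rps14 stood at 2018, 2279 and 2214 untreated and 2912, 3468 and 2703 treated, so that all treated libraries were higher. In WT it spanned 1730 to 4099, a wider range than both. Leaving out hTNFtg replicate 1 raised the number of members lowered with infliximab from 1 to 11, while the share of all genes lowered went from 1.44% to 4.76%. Leaving out hTNFtg replicate 3 gave 8 lowered and 1 raised, with 2.48% of all genes lowered and 4.01% raised.

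Infliximab-treated hTNFtg SFs were then set against WT SFs, to see how far treated cells stood from healthy ones. This comparison joins genotype and treatment and shares its libraries with both others. Here the ribosomal protein genes were lower: 79 of 85 members tested had a lower and 6 a higher mean log2 value in treated SFs, with a median log2 fold change of -0.40, against -0.00 over all genes tested and -0.02 over those with a mean of at least 100. At an unadjusted P under 0.05 in limma, 29 members were lowered and 0 raised. The count was 7 in a fit of all 9 libraries, where 3.42% of all genes were lowered, and 16 after quantile normalization, where 5.60% were. These 29 make 34.1% of the members, where 5.68% of all genes and 10.8% of those with a mean of at least 100 were lowered while 6.23% of all genes and 10.4% of those with a mean of at least 100 were raised. All treated libraries lay below all WT libraries in 35 members, 41.2%, against 7.07% of all genes and 13.9% of those with a mean of at least 100. They lay above in 0 members, against 7.14% of all genes. At an adjusted p under 0.05, limma gave 0 members, with a smallest adjusted p of 0.145, against 0.375% of all genes lowered and 0.365% raised. At that threshold edgeR on approximate reads gave 6 of 85, where it called 1.86% of all genes lowered. These were Rplp1, Rps26, Rpl29, Rps15a, Rps24 and Rpl24, all lower. Log2 fold changes of the 29 ran from -1.21 to -0.43.

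The 3 stalk proteins were among the 29. Rplp0, the base of the stalk, stood at 2440, 2837 and 2573 in WT, 2703, 2203 and 1842 in hTNFtg and 1710, 2128 and 1597 with infliximab. Rplp2, the partner of Rplp1, stood at 5267, 6675 and 6032 in WT, 2398, 5875 and 6911 in hTNFtg and 3504, 3947 and 3465 with infliximab. Rplp1 with infliximab stood at 8067, 12444 and 12355. In each of these 3 genes all treated libraries were below all WT libraries, and the untreated hTNFtg libraries overlapped with WT in each. Treated over WT, the log2 fold change was -0.54 ± 0.19 for Rplp0 (limma, adjusted p = 0.290), -1.21 ± 0.35 for Rplp1 (adjusted p = 0.181) and -0.72 ± 0.21 for Rplp2 (adjusted p = 0.182). Rplp0 was past the unadjusted threshold no longer without WT replicate 2.

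**Figure D4:**
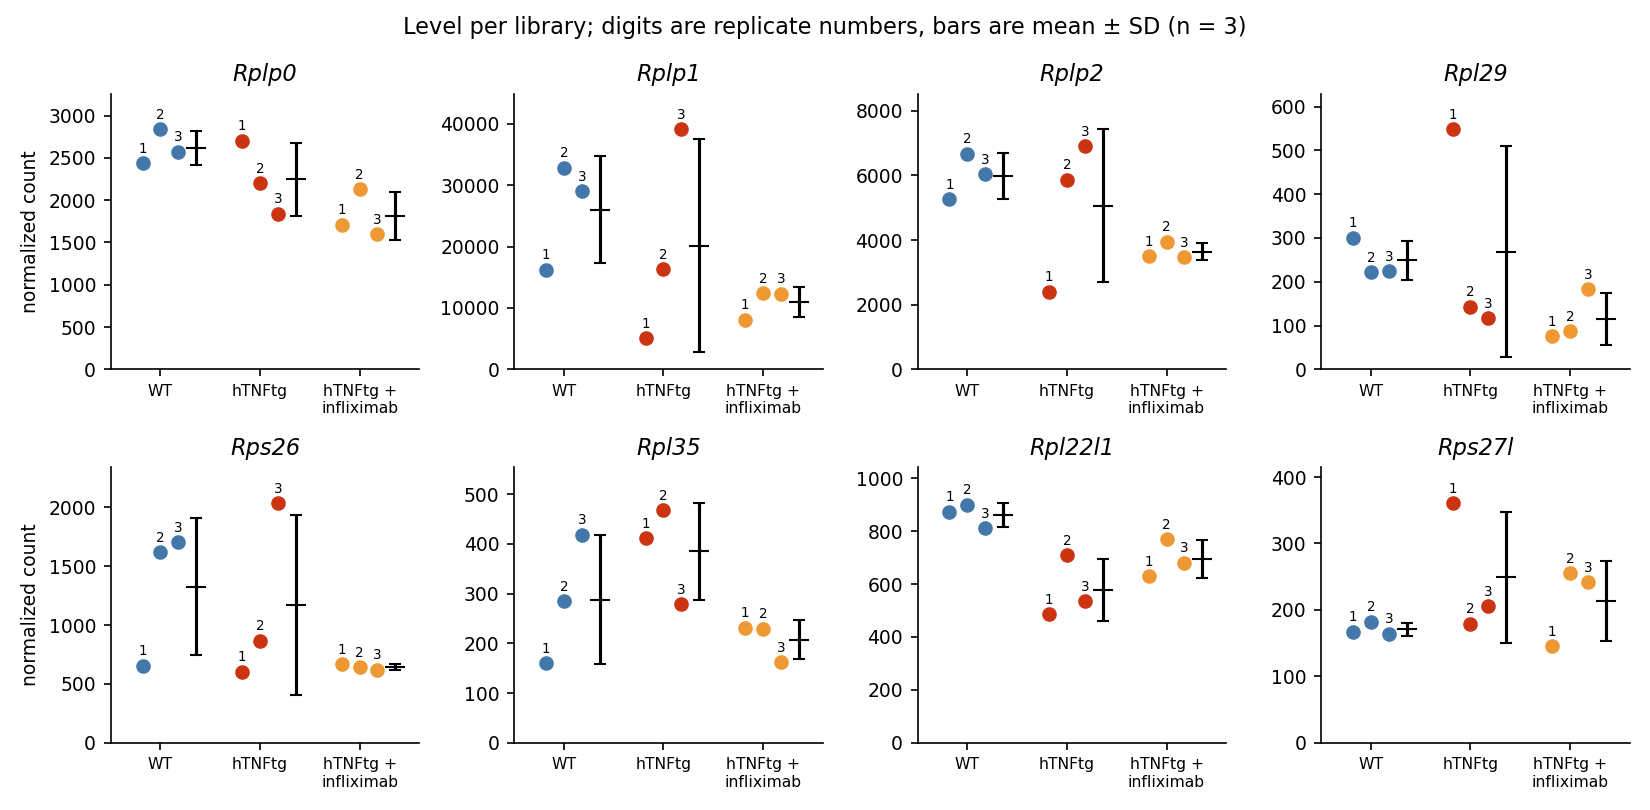
Normalized counts of 8 members in each library, with replicate numbers above the points and bars for mean ± SD (n = 3). The stalk genes Rplp0, Rplp1 and Rplp2 and Rpl29 are lower in every infliximab-treated library than in every WT library, Rps26 is tight with infliximab at 621 to 665 but meets WT replicate 1 at 654, and Rps27l overlaps between groups.

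Rplp1 and Rpl29 were the 2 members that also met the study's demand on the size of the change, a log2 value beyond 1 in either direction, which 2.95% of all genes met as lower and 3.86% as higher. Rpl29 was -1.20 ± 0.32 (limma, adjusted p = 0.145), a fold of 0.435. The highest treated library, at 183, was below the lowest WT library, at 222. When each library was left out in turn, the log2 fold change of Rplp1 ran from -1.52 to -1.01 and that of Rpl29 from -1.59 to -0.96, each with P under 0.05 throughout. Rplp2, Rpl30, Rpl37a and Rps27 also kept a P under 0.05 without any 1 library, and these 6 were the only members to do so. Of the 17 fits run for this comparison, with all alternatives, Rpl29 and Rpl30 had a P under 0.05 in 17. Rplp1 and Rplp2 had it in 16, and Rpl37a and Rps27 in 15.

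The 29 also included the small subunit genes Rps26 (-0.92), Rps15a (-0.89), Rps24 (-0.74), Rps9 (-0.70), Rps12 (-0.63), Rps29, Rps10, Rps6, Rps27 and Rps7. In all, 14 of 33 small subunit genes (42.4%) and 15 of 52 large subunit genes (28.8%) were lowered at this threshold, a difference that was not tested. Rps6 stood at 621, 876 and 912 in WT, 673, 812 and 622 in hTNFtg and 576, 601 and 458 with infliximab. All treated libraries were below WT, with a log2 fold change of -0.55 ± 0.21 (limma, adjusted p = 0.319). The further large subunit genes were Rpl24 (-0.73), Rpl14 (-0.70), Rpl31 (-0.66), Rpl36a (-0.64), Rpl36, Rpl35a, Rpl3, Rpl37a, Rpl30, Rpl18 and Rpl39, besides the stalk genes and Rpl29. Rpl3, which shapes the peptidyl transferase centre, stood at 595, 860 and 1081 in WT and 535, 660 and 472 with infliximab, groups that overlap, with -0.58.

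Rps15a stood at 1697, 2393 and 2182 in WT, 1520, 1912 and 1158 in hTNFtg and 1576, 1454 and 603 with infliximab, so that treated libraries were below WT. Rps24 gave 3787, 5475 and 8470 in WT and 4109, 3697 and 2480 with infliximab, which overlap. More than 50% of the Rps15a family counts, 65.9%, lay on pseudogenes.

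Other landmarks fell short of the threshold. Rpl5 and Rpl11, which bind MDM2 when ribosome assembly is disturbed, had log2 fold changes of -0.43 (adjusted p = 0.457) and -0.41 (adjusted p = 0.571) in limma. Rps27a, made as a fusion with ubiquitin, had -0.53 (limma, adjusted p = 0.439), and Rpsa -0.41 (adjusted p = 0.528). Rps19, whose loss causes Diamond-Blackfan anaemia in people, gave 4219, 1739 and 1759 in WT and 2839, 3102 and 1911 with infliximab, with 0.13 and overlapping groups. Rpl38, known from patterning of the mouse skeleton, gave 229, 219 and 230 in WT, 262, 214 and 287 in hTNFtg and 192, 200 and 140 with infliximab, with all treated libraries below the rest. Its log2 fold change was -0.37 over WT and -0.52 over untreated hTNFtg, and neither passed the test. Rpl10 gave -0.25 and Rpl4 -0.24 over WT, with groups that overlap. The 6 members with a higher value in treated SFs were Rps27l, Rps19, Rps14, Rpl27, Rps3a1 and Rpl10l, the last from a single count.

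The number of lowered members rested on single libraries. It was 45 without WT replicate 1, 10 without WT replicate 2, 12 without WT replicate 3, 16 without infliximab replicate 1, 25 without infliximab replicate 2 and 7 without infliximab replicate 3. Of all genes, 8.63% were lowered without WT replicate 1 and 4.48% to 5.04% without any other of these libraries. Infliximab replicate 3 was also the library with the hepatocyte markers at 565, and its share of ribosomal protein counts was the lowest of the series. The direction moved less: 68 of 85 members were lower in treated SFs than in WT whichever library was left out. The 2 that were higher were Rps27l and Rpl10l, the latter untested without the library of its single count. For hTNFtg over WT these numbers were 41 and 5 of 85, and for infliximab over untreated 35 and 9 of 86. Rpl3l is among the 5 and the 35 and Rpl10l among the 9, each untested without 1 library. Members moved together by library, so they are not separate replicates. Their median log2 deviation was 0.06, 0.29 and 0.34 in WT and -0.16, -0.05 and -0.33 with infliximab.

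Reads on pseudogenes are part of the signal of these genes. Named pseudogenes numbered 274, of 59 members, and held 2.67% to 3.07% of the counts in WT, 2.08% to 2.73% in hTNFtg and 2.28% to 2.59% with infliximab. For 25 members more than 50% of the summed counts of the gene and its pseudogenes lay on the pseudogenes. Rps12, with 23 pseudogenes, had 75.4% there, and Rps26 had 61.9% on a single pseudogene. The highest, Rps23-ps1, stood at 10565 normalized counts on average, above all but 2 members, Rplp1 and Rpl27a. A read that matches parent and pseudogene could be counted on either, so a level of such a member alone is uncertain. Treated over WT, 195 of 256 pseudogenes tested were lower (median of -0.33 on the log2 scale), and 27 were lowered at an unadjusted P under 0.05. That is 10.5% of them, against 5.68% of all genes, 8.83% of those with a mean of at least 10 and 10.8% of those with a mean of at least 100. A single pseudogene was raised (0.391%, against 6.23% of all genes). Rplp1, Rplp0, Rpl29 and Rpl35 had at most 2.31% of their counts on pseudogenes, and Rplp2 and Rpl11 had no named pseudogene.

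Other genes of translation were read from lists of known members. Of 20 translation factors and other TOP mRNAs, 20 were lower in treated than in WT SFs, 7 of them (35.0%) at an unadjusted P under 0.05 against 5.68% of all genes and 10.8% of those with a mean of at least 100, and their median of -0.39 on the log2 scale stood next to -0.40 for the ribosomal protein genes. Eef1a1, the elongation factor that brings aminoacyl-tRNA, gave 7934, 11252 and 10210 in WT, 7511, 8946 and 8954 in hTNFtg and 5213, 6228 and 5719 with infliximab. Treated libraries were all lower than the rest, with -0.77 ± 0.24 over WT (limma, adjusted p = 0.212). In hTNFtg over WT the list had 14 of 20 lower and a median of -0.18 with 0 past the threshold, and with infliximab over untreated 15 of 20 lower, a median of -0.20 and 3 of 20 lowered, against 1.44% of all genes and 2.12% of those with a mean of at least 100.

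**Figure D5:**
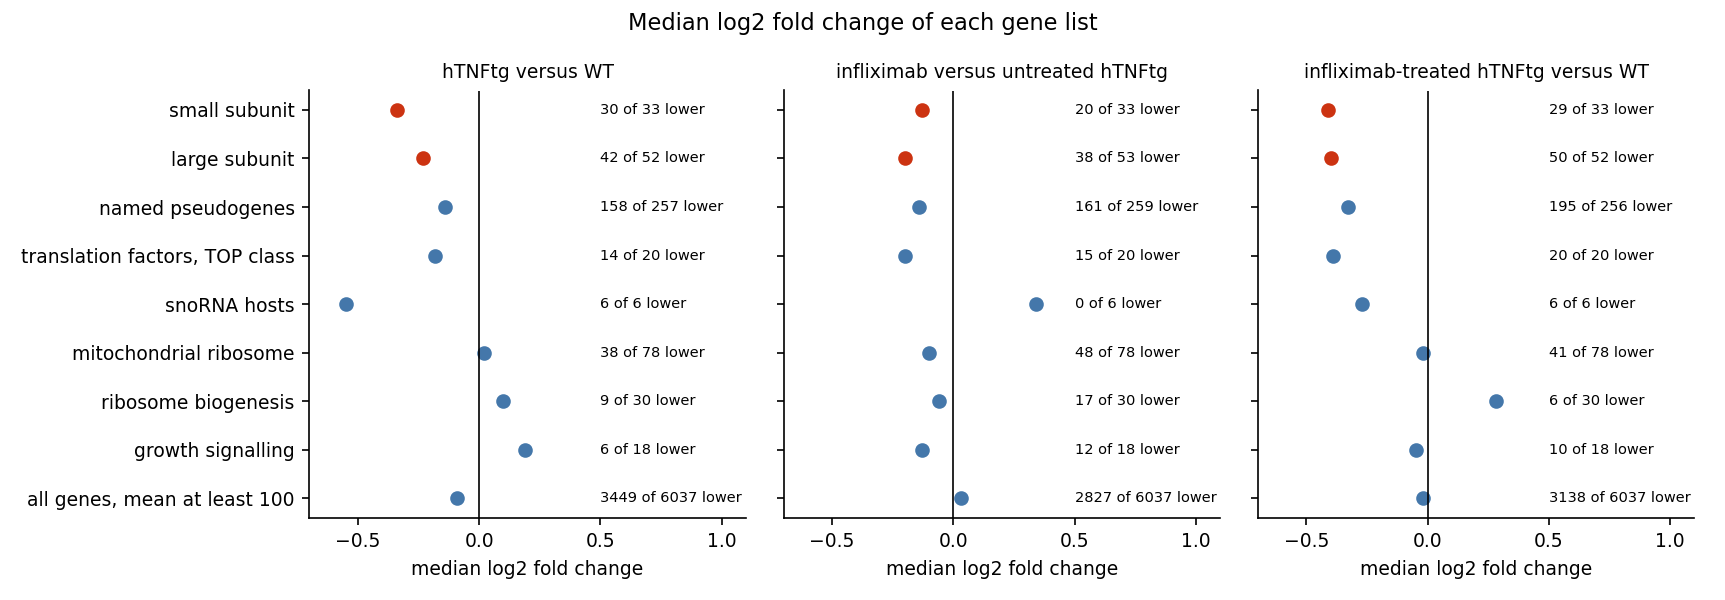
Median log2 fold change of gene lists in the 3 comparisons, with the number of genes lower of those tested beside each point and the members in red. In infliximab-treated over WT SFs the ribosomal protein genes and the translation factors of the TOP class lie near -0.40, whereas mitochondrial ribosomal proteins lie at -0.02 and ribosome biogenesis at 0.28.

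Genes that build ribosomes were counted in the same way, and their direction carries no test. Of 30 genes of ribosome biogenesis, 24 were higher and 6 lower in treated than in WT SFs, with a median of 0.28, 4 raised and 1 lowered at an unadjusted P under 0.05. These are 13.3% and 3.33%, against 6.23% and 5.68% of all genes and 10.4% and 10.8% of those with a mean of at least 100. Of all genes 52.1% were lower in this comparison. In hTNFtg over WT 21 of the 30 were higher, with a median of 0.10, 2 raised (6.67%) and 1 lowered (3.33%), against 4.02% and 3.69% of all genes and 6.03% and 5.47% of those with a mean of at least 100. Of all genes 53.8% were lower there. With infliximab over untreated hTNFtg 17 of the 30 were lower, with a median of -0.06, 0 raised and 2 lowered (6.67%), against 2.16% and 1.44% of all genes and 4.52% and 2.12% of those with a mean of at least 100. The gene lowered in treated SFs against WT was Ubtf, the factor of RNA polymerase I on ribosomal DNA, at 1326, 1371 and 1240 in WT, 480, 841 and 1100 in hTNFtg and 795, 927 and 1090 with infliximab. All 6 hTNFtg libraries were below WT. Ubtf had a log2 fold change of -0.78 in hTNFtg over WT (limma, adjusted p = 0.645) and -0.50 in treated over WT (adjusted p = 0.298). The 18 genes of growth signalling, among them Mtor and Larp1, had medians of 0.19, -0.13 and -0.05 in the 3 comparisons, with 0 past the threshold in the first 2. In treated over WT 2 were raised (11.1%) and 1 lowered (5.56%), against 6.23% and 5.68% of all genes and 10.4% and 10.8% of those with a mean of at least 100. The 78 mitochondrial ribosomal protein genes had medians of 0.02, -0.10 and -0.02. In treated over WT 7 of them were lowered (8.97%, against 5.68% of all genes) and 1 raised (1.28%, against 6.23%). All treated libraries lay below all WT libraries in 9 of the 78 and above them in 3. Of all genes, 7.07% lay below and 7.14% above in this way. Among genes with a mean of at least 100 these shares were 13.9% and 12.1%. In hTNFtg over WT 2 of the 78 were lowered (2.56%, against 3.69% of all genes) and 0 raised (against 4.02%). With infliximab over untreated 0 were lowered (against 1.44% of all genes) and 1 raised (1.28%, against 2.16%). The 6 noncoding hosts of snoRNAs, which are TOP RNAs as well, had medians of -0.55, 0.34 and -0.27, with 0 past the threshold. Gas5 among them stood at 263 in hTNFtg replicate 3 and 521 in infliximab replicate 3, against 1995 to 3850 in the other 7 libraries, a difference between libraries and not between groups.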

How the data were processed

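The authors mapped the reads to mm10 with TopHat2 and Bowtie2, counted them per gene with GenomicRanges and normalized the counts, with DESeq run through metaseqr. Versions are not given in the sources used here. The score used per gene and library is the authors' normalized count, rounded to whole numbers as deposited. For the shallow library, hTNFtg replicate 1, whole reads could be recovered from the signal that the authors deposited. The GC fraction deposited by the authors was used to describe members only. The deposited tables also hold p-values and fold changes of the authors' own comparisons, which were not used, nor were 24 further per-sample columns. The unit differs from that assumed for counts, so the test was limma 3.58.1 (R 4.3.3, lmFit, eBayes with trend) on log2(normalized count + 1), leaving out genes at 0 in all 6 libraries of a comparison, with Benjamini-Hochberg adjustment over all of them. It was tested on simulated data. Each P-value sets a difference between groups against the spread between replicate libraries, moderated over genes. As the source mice are not stated, whether this is a spread between mice is not known.

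Approximate reads are the normalized count divided by what 1 read is worth in a library, fitted to the spacing of its low values. In a test on simulated data of 30297 genes, 13 of 16 steps were recovered within 1 percent. edgeR 4.0.16 was run on these reads as an alternative. The members, the lists and the genes named were chosen with earlier results of these data known. Named genes were the 8 highest members, those with a mean under 100, paralogs, those past the study's rule, the 5 highest and 5 lowest fold changes per comparison and known landmarks. In the other lists only the 2 highest and 2 lowest were named. Others named here were chosen after their values were seen. Alternatives were a pseudocount of 5, a mean of at least 10, other normalizations, array quality weights, a block by replicate number, a single fit of all 9 libraries and each library left out. Promoter sequences are from RefSeq (GRCm38.p6). Some genes are counted but not reported by name here.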

Additional observations from a re-analysis of the deposited data

How the results depend on the processing

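Medians of the members kept their sign under all alternatives run, and no call was reversed. In hTNFtg over WT, array quality weights gave 2 raised and 1 lowered members, where 13.3% of all genes were raised and 6.89% lowered. The fit of all 9 libraries gave 3 lowered, where 5.12% of all genes were. Leaving out a library gave 0 to 3 lowered, where 2.68% to 5.76% of all genes were. In infliximab over untreated hTNFtg, the lowered count was 3 with a pseudocount of 5 (1.5% of all genes lowered). It was also 3 with a mean of at least 10 (2.01%) and with all 9 libraries (2.28%). It was 2 with quantile normalization (1.61%) or the total of other genes (1.39%), and 4 with edgeR (3.36%). The count was 12 with array quality weights, which lowered 10.6% of all genes. With these weights 1 member, Rpl35, had an adjusted p under 0.05. Leaving out a library gave 0 to 11 lowered and 0 to 1 raised, the 0 without hTNFtg replicate 2 or infliximab replicate 3, 11 without hTNFtg replicate 1 and 8 without hTNFtg replicate 3. In infliximab-treated over WT, 16 were lowered with quantile normalization (5.60% of all genes) and 7 with all 9 libraries (3.42%). The count was 21 with the total of other genes (4.88%) and 27 with edgeR at an unadjusted P under 0.05 (5.78%). It was 32 with a mean of at least 10 (8.94%) and 36 with array quality weights (7.63%). Leaving out a library gave 7 to 45 lowered and 0 to 1 raised. Of all genes, 4.48% to 8.63% were lowered in these fits and 5.04% to 8.41% raised. edgeR gave 6 members at an adjusted p under 0.05, all lowered, where 1.86% of all genes were. The cause was not tested. Summing members with their pseudogenes, chosen after seeing the data, moved no count of members by over 1.5 times.

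With the replicate block, 3, 3 and 16 members were lowered in the 3 comparisons, against 0, 1 and 29. Of all genes, 3.93%, 1.66% and 4.84% were lowered with the block, against 3.69%, 1.44% and 5.68%. Deviations of same-numbered libraries correlated at -0.15 to 0.35, and those of differently numbered ones at -0.49 to 0.24. Between treated and untreated hTNFtg SFs, same numbers gave 0.07, 0.2 and 0.27, and different numbers -0.26 to 0.13. Whether the numbers pair samples is not stated, and these values do not settle it. The main test used no pairing.

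The mean share of the members in WT, hTNFtg and infliximab-treated SFs was 8.38%, 7.12% and 6.51% with their pseudogenes, 6.57%, 5.60% and 4.86% of protein-coding counts, and 3.90%, 3.36% and 3.09% without the 5 highest members. Depth limits the members near 3 reads, above all in hTNFtg replicate 1.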
